A study of Mus musculus with 27 samples.

Results

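The subunits of the oxidative phosphorylation system were followed in hepatocytes, the main cell type of the liver, from 9 inbred mouse strains. Members were taken from the count table by gene type and symbol: protein-coding genes whose symbols begin with Nduf a, b, c, s or v, are Sdha to Sdhd or Cyc1, or begin with Uqcr, Cox4 to Cox8, Atp5 or mt-. This gave 107 of the 43346 genes in the table. They were sorted by symbol into 76 nuclear-encoded structural subunits, 13 subunits encoded by mitochondrial DNA, 8 complex I assembly factors of the Ndufaf group, 2 other factors (Cox7a2l and Atp5s) and 8 isoforms that are best known from other tissues. All of the nuclear and mitochondrial-encoded subunits passed the filter on low counts, and 102 of the 107 members did so. The 5 that did not pass were all tissue-restricted isoforms.

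RNA was sequenced from female mice at 12 weeks of age, with 3 libraries each of 129S1/SvImJ, A/J, C57BL/6J, CAST/EiJ, DBA/2J, NOD/ShiLtJ, NZO/HlLtJ, PWK/PhJ and WSB/EiJ. No mouse carried a treatment or an engineered allele according to the labels, and no strain served as a control, so each strain was set against the mean of the 8 others. The wider study related genetic variation to histone marks, DNA methylation and expression, and only expression is analysed here. The libraries of a strain are labelled as biological replicates; whether each came from its own mouse is not stated, so p-values measure the spread between these libraries. Totals ran from 17015956 to 35078511 estimated counts. None of the 10 hepatocyte markers examined was at 0 in all libraries. Markers of other liver cells were present too: summed Kupffer cell markers averaged 60.5 CPM (counts per 1000000 of the scaled library) in 129S1/SvImJ and 250 CPM in C57BL/6J, and lymphocyte markers averaged 0.144 to 1.13 CPM by strain.

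Oxidative phosphorylation makes most of a hepatocyte's ATP. Complexes I (NADH dehydrogenase) and II (succinate dehydrogenase) pass electrons to coenzyme Q, complex III passes them to cytochrome c, complex IV (cytochrome c oxidase) reduces oxygen, and complex V (ATP synthase) uses the resulting proton gradient. Mitochondrial DNA encodes the membrane core subunits of complex I, cytochrome b of complex III, the catalytic core of complex IV and part of the proton channel of complex V, which are translated inside the organelle. Complex II and all other subunits are nuclear genes whose proteins are imported. The liver relies on this system for gluconeogenesis, urea synthesis and fatty acid oxidation.

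The mitochondrial-encoded transcripts were far more abundant than the nuclear ones. Per kilobase of annotated exon, the 13 mitochondrial-encoded genes had a median of 3096 CPM, from 574 CPM for mt-Nd3 to 13078 CPM for mt-Co1, the catalytic subunit of complex IV. The 76 nuclear subunits had a median of 40.0 CPM per kilobase, from 4.14 CPM for Atp5l to 231 CPM for Cox6a1, so the ranges of the 2 genomes did not overlap. The Atp5l value rests on 6443 bases of annotated exon, while its longest coding transcript has 544 bases. An annotated copy of it with 100% identity, Gm10221, averaged 26.5 CPM. Among nuclear subunits the highest after Cox6a1 were Atp5b and Atp5a1, the catalytic core of ATP synthase, at 214 and 208 CPM per kilobase, and Cox4i1 at 148. The 8 Ndufaf assembly factors, which help build complex I but are not part of it, had a median of only 3.22 CPM per kilobase. These levels came from libraries selected on poly(A) tails, and how well mitochondrial and nuclear transcripts are captured was not tested.

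**Figure D1:**
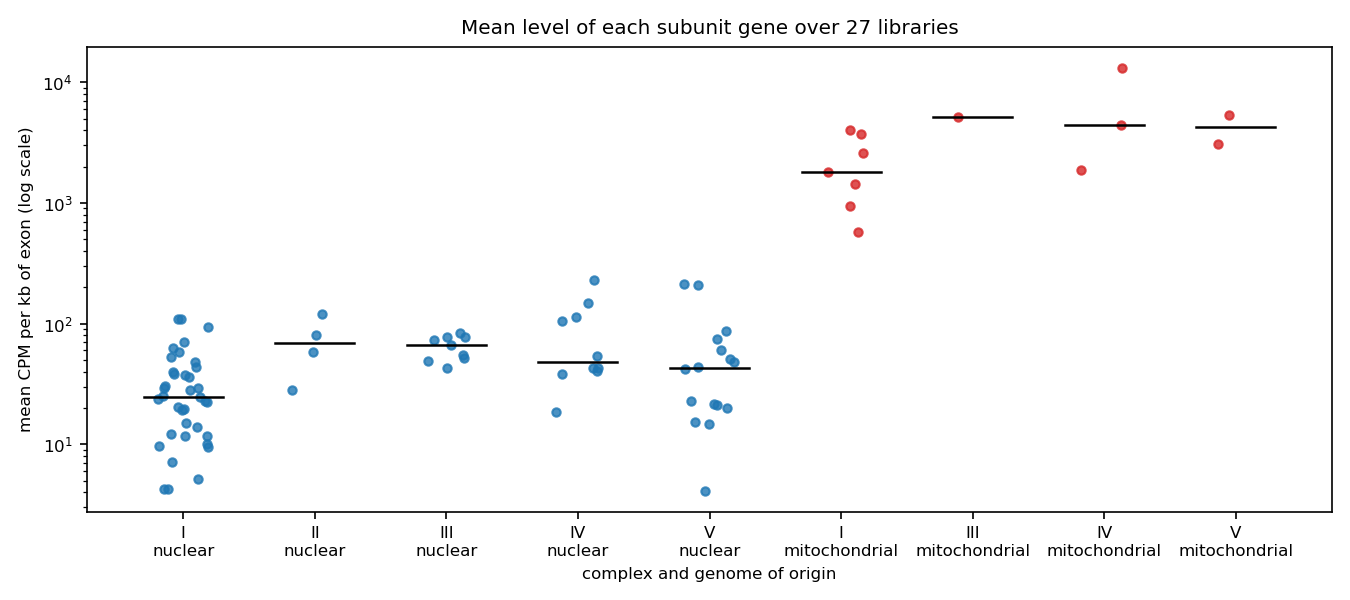
Mean level of each nuclear and mitochondrial-encoded subunit over the 27 libraries, in CPM per kilobase of exon on a log axis, by complex and genome. Each point is a gene and each line a median; every mitochondrial-encoded gene lies above the highest nuclear subunit, Cox6a1 at 231 CPM per kilobase.

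Nuclear subunits differed among strains about as often as all genes, over a smaller median range, and all mitochondrial-encoded genes differed. A test of any difference among the 9 strains (edgeR's quasi-likelihood F test, adjusted p under 0.05) called 74.2% of all genes tested. It called 56 of the 76 nuclear subunits, a share near that of all genes, made up of 26 of 37 in complex I, 2 of 4 in complex II, 8 of 9 in complex III, 7 of 10 in complex IV and 13 of 16 in complex V. All 13 mitochondrial-encoded genes and 7 of the 8 Ndufaf factors were called. The median range between the highest and lowest strain means was 0.80 on the log2 scale for nuclear subunits, 1.66 for mitochondrial-encoded genes and 1.16 for all genes. Some of the most abundant subunits had little spread. Ndufa4, counted with complex I by its symbol and known today as a complex IV subunit, ran from 126 CPM through a median of 151 CPM to 177 CPM over the 27 libraries, and its strain means spanned 0.27 (adjusted p = 0.683). Cox6a1 spanned 0.35 (adjusted p = 0.359) and Sdhd, a membrane anchor of complex II, spanned 0.36 (adjusted p = 0.114).

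Nuclear subunits were called mostly lower in A/J and C57BL/6J and mostly higher in CAST/EiJ, in complexes I, III, IV and V. Complex II, with 4 subunits, had 2 lower in A/J, 1 lower in C57BL/6J and none called in CAST/EiJ. In A/J, 37 nuclear subunits were lower than the mean of the other strains and none was higher, where 11.6% of all genes were lower and 15.9% higher. In C57BL/6J, 21 were lower and none higher, against 6.5% and 11.6% of all genes. In CAST/EiJ, 33 were higher and 1 (Ndufs5) was lower, against 20.1% and 17.8%. In PWK/PhJ, 10 were higher and 3 lower, against 19.4% and 14.8%, and in 129S1/SvImJ 7 were higher and 1 lower, against 10.5% and 7.86%. The other 4 strains had few calls: 1 higher and 1 lower in DBA/2J (9.5% and 3.78% of all genes), 1 and 2 in NOD/ShiLtJ (9.2% and 5.72%), 2 and 3 in NZO/HlLtJ (14.8% and 12.9%), and 2 and 3 in WSB/EiJ (15.5% and 9.25%). These 9 comparisons share libraries and are set side by side only. Called or not, 70 of the 76 nuclear subunits lay below the other strains in A/J and 70 did so in C57BL/6J, whereas 63 lay above them in CAST/EiJ, 65 in 129S1/SvImJ and 64 in PWK/PhJ. A/J had the lowest strain mean for 40 nuclear subunits and C57BL/6J for 24; CAST/EiJ had the highest for 36.

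The size of these shifts was modest. The median log2 difference over the 76 nuclear subunits was -0.40 in A/J, -0.34 in C57BL/6J, 0.28 in CAST/EiJ, 0.21 in 129S1/SvImJ and 0.14 in PWK/PhJ, while the median over all genes tested ran from -0.01 in CAST/EiJ to 0.02 in A/J. With the trend on exon length removed from each library, an alternative added after the data were seen, the same medians were -0.26, -0.25, 0.20, 0.18 and 0.16. Under it 5 nuclear subunits, not 1, were lower in CAST/EiJ and 16, not 10, were higher in PWK/PhJ. It also gave 8 lower in NZO/HlLtJ, 8 higher in WSB/EiJ and 3 lower in 129S1/SvImJ, and DESeq2 gave 33 lower in C57BL/6J and 3 lower in 129S1/SvImJ. DESeq2 also called more of all genes for any difference. Shares of all genes by strain were not computed for these alternatives or without 1 library, so changes particular to the subunits cannot be told from changes in the whole fit. The counts rested on few libraries. The 37 lower subunits in A/J became 10 without A/J replicate 2 and 6 without A/J replicate 3. The 21 in C57BL/6J became 2 without C57BL/6J replicate 2 and 0 without replicate 4, but 44 without replicate 1, 33 without A/J replicate 3 and 32 without PWK/PhJ replicate 1. In CAST/EiJ the 33 became 21, 19 and 20 without replicates 1, 4 and 5. The 10 higher in PWK/PhJ became 6 without replicate 2 of that strain, and the 7 higher in 129S1/SvImJ became 3, 2 and 1 without its replicates 1, 2 and 3. The small counts moved as well. The 1 lower in 129S1/SvImJ became 0 without its replicate 1 or 2 and 2 without replicate 3, and the 3 lower in PWK/PhJ became 0 without its replicate 1. In NOD/ShiLtJ both counts became 0 without any 1 of its libraries. In DBA/2J the 1 higher became 0 without its replicate 3 and the 1 lower became 0 without replicate 2 or 3. The 3 lower in NZO/HlLtJ became 0 without its replicate 1 or 2, and the 2 higher ranged from 1 to 6 over the libraries left out. In WSB/EiJ the 2 higher became 1 and 0 without its replicates 3 and 4, and the 3 lower became 1, 0 and 5 without replicates 2, 3 and 4.

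**Figure D2:**
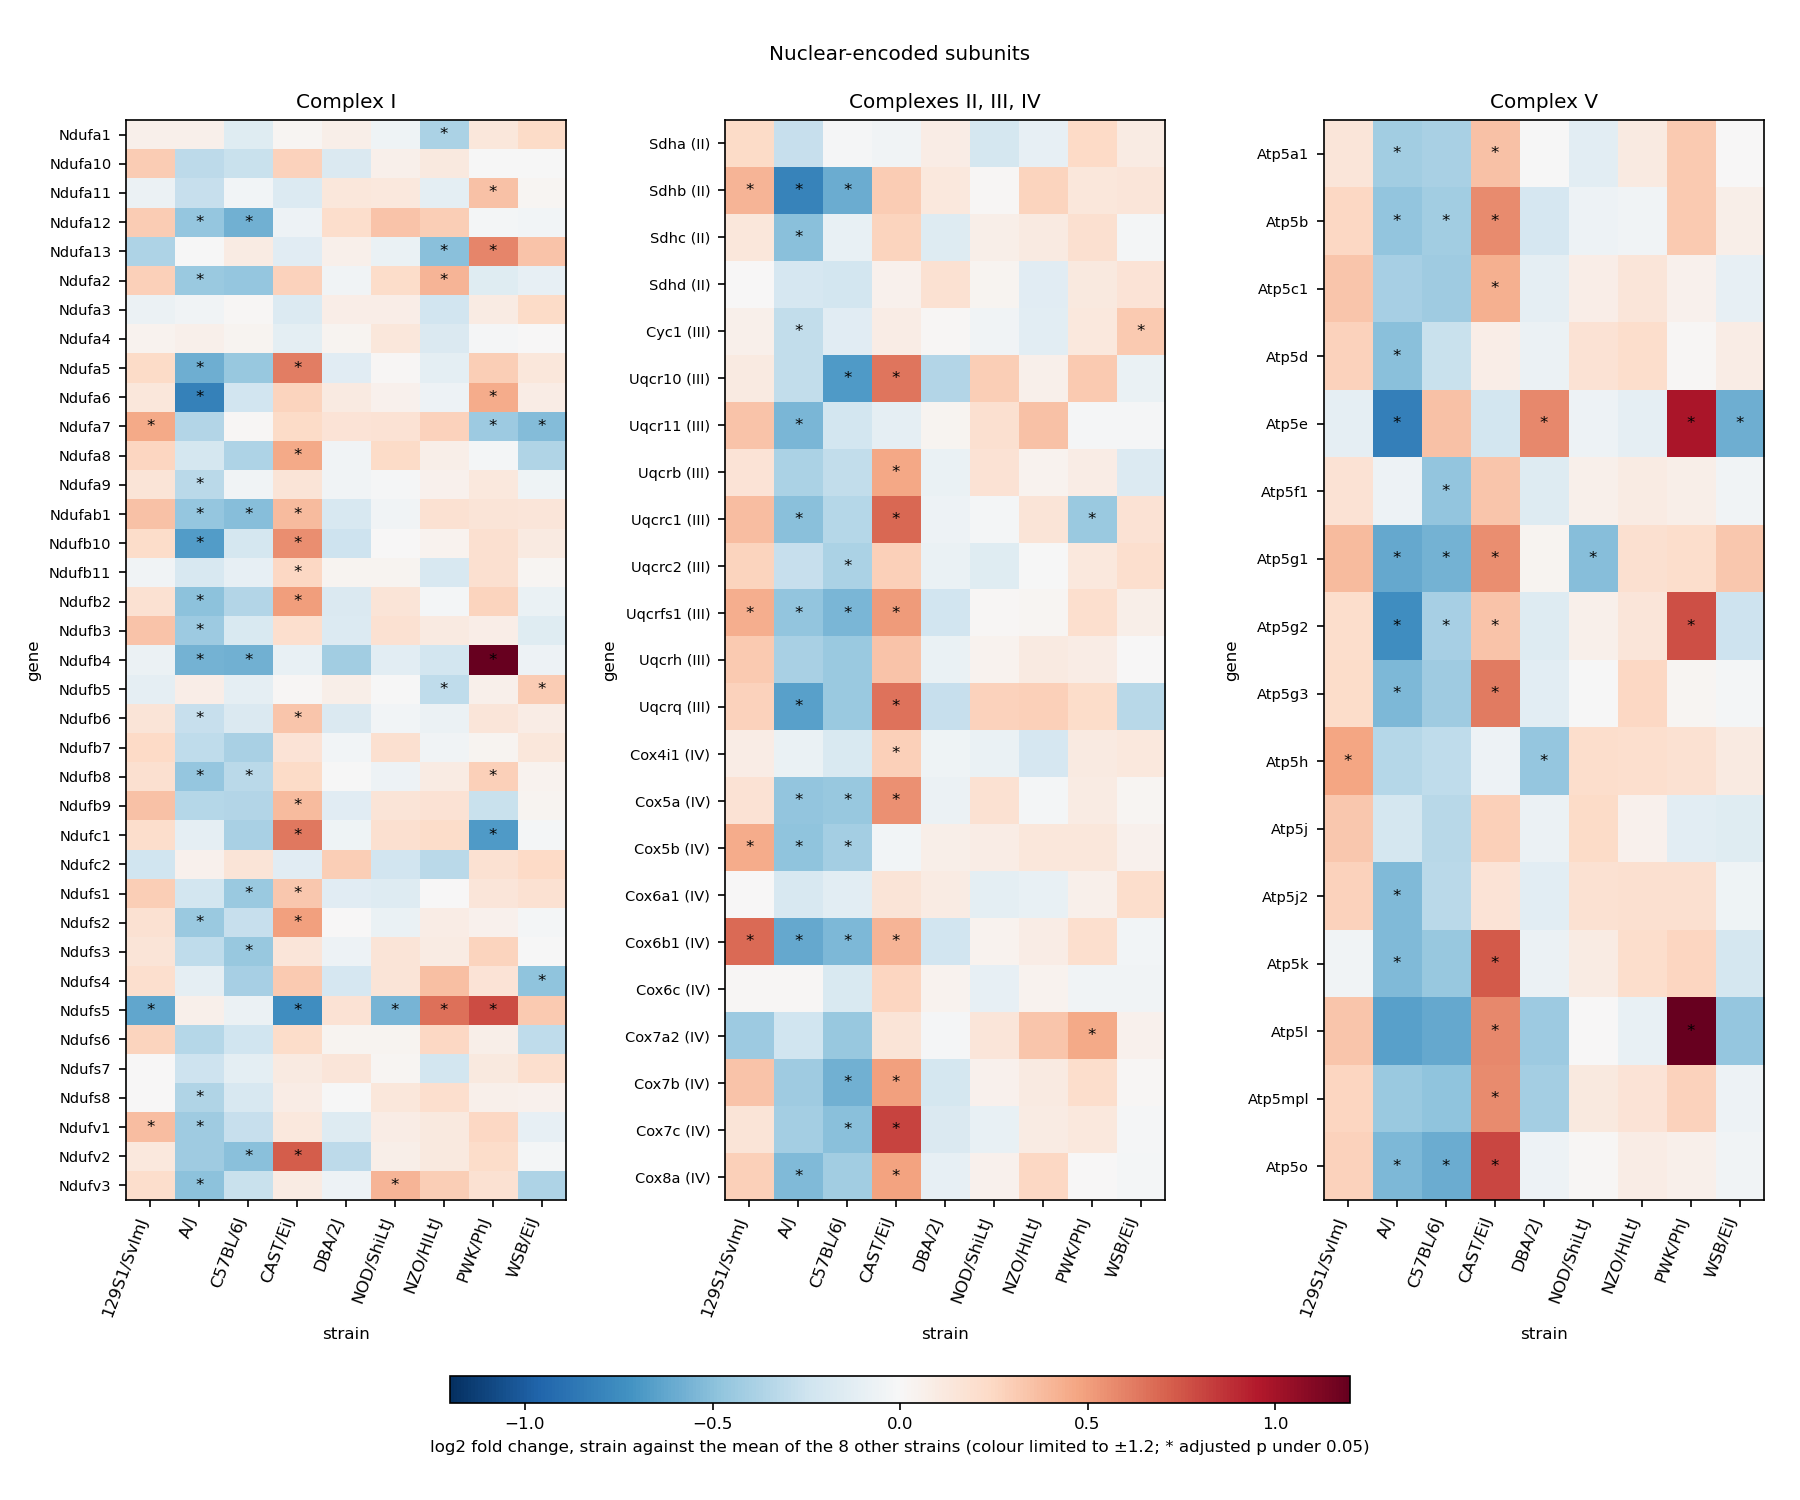
Log2 difference of each strain from the mean of the 8 other strains for the 76 nuclear subunits, ordered by complex, with colours limited at 1.2 in either direction. Asterisks mark adjusted p under 0.05; the A/J and C57BL/6J columns are mostly low and the CAST/EiJ column mostly high, with no CAST/EiJ call in complex II.

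Some gene groups were high in the same libraries as the nuclear subunits and others were not. In 7 of the 9 strains the library with the highest nuclear subunit median also had the highest median of 78 cytosolic ribosomal protein genes. For genes of the mitochondrial matrix outside this system (16 genes) and for all 881 tested genes with under 1000 bases of exon this held in 6 of 9 strains, and for 77 mitochondrial ribosomal protein genes in 5. It held in none of the 9 strains for the mitochondrial-encoded genes and the endothelial markers, each of which was lowest in that library in 5 strains. Kupffer cell markers were highest there in 3 strains and lowest in 4. By strain, the cytosolic ribosomal protein genes had median deviations from the mean of the strains of -0.33 in A/J, -0.28 in C57BL/6J, 0.40 in CAST/EiJ, 0.29 in 129S1/SvImJ and 0.12 in PWK/PhJ. They also had 0.34 in NZO/HlLtJ and -0.31 in WSB/EiJ, strains in which the nuclear subunits had a median log2 difference of 0.10 and 0.00147. Short genes had -0.17 in A/J, -0.22 in C57BL/6J and 0.24 in CAST/EiJ, but -0.19 in PWK/PhJ, where 64 of the 76 nuclear subunits lay above the other strains. Kupffer cell markers, 10 genes, had 0.88 in A/J, 1.24 in C57BL/6J, -0.78 in CAST/EiJ, -0.94 in 129S1/SvImJ and 0.81 in PWK/PhJ. Their summed level ran from 136 to 293 CPM over the A/J libraries, 210 to 281 CPM in C57BL/6J and 59.4 to 72.5 CPM in CAST/EiJ. No Kupffer cell marker was at 0 in all libraries. The part of these groups, of cell makeup and of RNA quality in the strain pattern was not tested, and in such bulk samples fewer cells of a type and less RNA per cell cannot be told apart.

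Promoter sequences are shown for a subunit of each complex, because promoters of such genes are known to carry binding sites for NRF1 and ETS factors. The 5 genes did not share 1 strain pattern. RefSeq promoters (GRCm38.p6, 250 bases before to 50 after the start) were matched for 62 of the 76 nuclear subunits. The 250 bases before the start are printed 5′ to 3′, with capitals marking matches on either strand to the NRF1 motif (GCGCA, then any base, then GCGC), the ETS motif CCGGAAG or the cyclic AMP element TGACGTCA.
Ndufb4, chr16:37654369-37654618, minus strand: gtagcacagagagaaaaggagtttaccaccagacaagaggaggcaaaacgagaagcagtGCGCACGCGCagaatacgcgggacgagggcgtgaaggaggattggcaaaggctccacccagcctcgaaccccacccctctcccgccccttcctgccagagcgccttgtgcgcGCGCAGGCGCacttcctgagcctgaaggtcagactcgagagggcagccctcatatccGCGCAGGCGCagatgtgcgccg
Sdhd, chr9:50603850-50604099, minus strand: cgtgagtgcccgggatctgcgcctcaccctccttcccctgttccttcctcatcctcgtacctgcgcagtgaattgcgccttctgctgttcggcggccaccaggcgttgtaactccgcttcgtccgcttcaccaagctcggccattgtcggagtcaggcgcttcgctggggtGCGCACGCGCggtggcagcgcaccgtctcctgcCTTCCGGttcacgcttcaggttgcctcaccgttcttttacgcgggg
Uqcrfs1, chr13:30545317-30545566, minus strand: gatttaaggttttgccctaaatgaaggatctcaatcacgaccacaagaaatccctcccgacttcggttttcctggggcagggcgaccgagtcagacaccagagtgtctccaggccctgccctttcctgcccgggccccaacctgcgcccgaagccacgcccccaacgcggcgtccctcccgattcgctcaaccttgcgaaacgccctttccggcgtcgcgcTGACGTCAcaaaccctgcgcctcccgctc
Cox6b1, chr7:30626115-30626364, minus strand: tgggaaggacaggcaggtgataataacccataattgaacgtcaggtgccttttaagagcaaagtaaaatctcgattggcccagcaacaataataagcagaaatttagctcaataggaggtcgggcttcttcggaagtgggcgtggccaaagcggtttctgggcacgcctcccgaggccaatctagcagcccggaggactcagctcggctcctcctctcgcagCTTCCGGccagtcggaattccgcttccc
Atp5g2, chr15:102671048-102671297, minus strand: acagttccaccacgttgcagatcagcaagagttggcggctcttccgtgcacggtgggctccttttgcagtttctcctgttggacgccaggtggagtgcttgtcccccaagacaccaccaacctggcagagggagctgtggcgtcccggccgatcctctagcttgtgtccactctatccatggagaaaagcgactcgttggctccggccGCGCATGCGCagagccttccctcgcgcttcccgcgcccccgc

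Motifs were searched on both strands, and shares are given over the 62 subunit promoters, all 27025 promoters of the same length and the 17491 of them that belong to coding genes. The NRF1 motif was found in 16 subunit promoters (25.8%, against 4.78% of all and 6.60% of coding promoters). The form with T as its free base was found in 5 (8.07%, against 0.977% and 1.32%). The ETS motif CCGGAAG was found in 15 (24.2%, against 9.12% and 11.9%), and 4 promoters held both it and the NRF1 motif. The YY1 motif AAGATGGCG was found in 6 (9.68%, against 1.495% and 1.94%), TGACGTCA in 4 (6.45%, against 1.88% and 2.34%) and the ERR motif TCAAGGTCA in 2 (3.23%, against 0.407% and 0.332%). The SP1 motif GGGGCGGGG was found in 9 (14.5%), a share above that of all promoters (11.6%) and below that of coding promoters (15.5%). The TATA motif TATAAA was found in 5 (8.07%, against 14.2% and 13.3%). In all, 35 of the 62 promoters held a match to any of 5 motifs: NRF1, ETS, YY1, ERR or TGACGTCA. The 5 printed promoters all hold a match, so they do not show how common matches are. A match is a description of these letters and not of binding. Ndufb4 had 3 matches to the NRF1 motif, and Sdhd, which differed little among strains, held both an NRF1 and an ETS match.

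Complex I, the largest complex, had 16 of its 37 nuclear subunits lower in A/J, 7 lower in C57BL/6J and 12 higher in CAST/EiJ (11.6%, 6.5% and 20.1% of all genes). Among them were the flavoprotein subunits of the NADH-oxidising module. Ndufv1 was lower in A/J (log2 difference -0.42) and higher in 129S1/SvImJ (0.37), and Ndufv2 was lower in C57BL/6J (-0.50) and higher in CAST/EiJ (0.73). Ndufs1, the largest iron-sulphur subunit, was lower in C57BL/6J (-0.44) and higher in CAST/EiJ (0.33). Ndufa6 (A/J, -0.81) and Ndufb10 (A/J, -0.67) had large decreases in A/J. A few subunits went their own way: Ndufa7 was lower in PWK/PhJ (-0.44) and WSB/EiJ (-0.52), Ndufc1 was lower in PWK/PhJ (-0.68) and higher in CAST/EiJ (0.63), and Ndufa13 was lower in NZO/HlLtJ (-0.50) and higher in PWK/PhJ (0.59).

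Complex II, with nuclear subunits only, had its strain differences in Sdhb and Sdhc. Sdhb (ENSMUSG00000009863, chr4:140961203-140979193, GRCm38) encodes the iron-sulphur subunit. Its libraries were at 92.9, 77.02 and 60.3 CPM in A/J, at 102.9, 88.0 and 71.0 CPM in C57BL/6J, and at 141.9, 172.4 and 170.4 CPM in 129S1/SvImJ. Every A/J and C57BL/6J library lay below every 129S1/SvImJ library. Against the other strains Sdhb was lower in A/J (log2 difference -0.80 ± 0.15 SE, edgeR adjusted p = 0.00033) and in C57BL/6J (-0.59, adjusted p = 0.00605), and higher in 129S1/SvImJ (0.40 ± 0.13, adjusted p = 0.038). Sdhc, a membrane anchor, was lower in A/J (-0.50), while Sdha, the flavoprotein, did not pass the test for any difference (adjusted p = 0.0695).

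Complex III had 5 of its 9 nuclear subunits lower in A/J, 3 lower in C57BL/6J and 5 higher in CAST/EiJ (11.6%, 6.5% and 20.1% of all genes). Uqcr10 (ENSMUSG00000059534, chr11:4701973-4704342), a small subunit, had the largest range of strain means in this complex, 1.21. Its CAST/EiJ libraries were at 56.2, 61.1 and 49.7 CPM and its C57BL/6J libraries at 33.5, 23.5 and 17.3 CPM, with no overlap. It was higher in CAST/EiJ (0.64, edgeR adjusted p = 0.00258) and lower in C57BL/6J (-0.68, adjusted p = 0.00976). The core protein gene Uqcrc1 was higher in CAST/EiJ (0.69) and lower in A/J (-0.50) and PWK/PhJ (-0.45). The Rieske iron-sulphur protein gene Uqcrfs1, whose promoter is printed above, was lower in A/J (-0.48) and C57BL/6J (-0.55) and higher in CAST/EiJ (0.51) and 129S1/SvImJ (0.43). Cyc1, cytochrome c1, had the smallest range of strain means, 0.53; it was higher in WSB/EiJ, where its libraries were at 177.9, 187.0 and 244.5 CPM (0.32, adjusted p = 0.0149).

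Complex IV had 4 of its 10 nuclear subunits lower in A/J, 5 lower in C57BL/6J and 6 higher in CAST/EiJ (11.6%, 6.5% and 20.1% of all genes). Cox6b1 (ENSMUSG00000036751, chr7:30616861-30626151), which links the monomers of the enzyme's dimer, was at 95.9, 115 and 116 CPM in 129S1/SvImJ, at 66.0, 42.7 and 39.3 CPM in A/J and at 65.9, 49.8 and 39.3 CPM in C57BL/6J. The 129S1/SvImJ libraries lay above all 6 of the others. It was higher in 129S1/SvImJ (0.68 ± 0.15 SE, edgeR adjusted p = 0.00208) and lower in A/J (-0.61, adjusted p = 0.0083) and C57BL/6J (-0.54, adjusted p = 0.025). Cox7c had the largest increase in CAST/EiJ of any called member, with libraries at 72.7, 82.0 and 76.6 CPM (0.81 ± 0.15, adjusted p = 9.89e-05). Cox4i1, Cox6a1 and Cox6c did not pass the test for any difference among strains.

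Complex V had 10 of its 16 nuclear subunits lower in A/J, 5 lower in C57BL/6J and 10 higher in CAST/EiJ (11.6%, 6.5% and 20.1% of all genes). Atp5o (ENSMUSG00000022956, chr16:91925214-91931687), the stalk subunit that carries sensitivity to oligomycin, was at 128, 136 and 129 CPM in CAST/EiJ and at most 97.7 CPM in 129S1/SvImJ, the strain with the next highest mean. Its counts were not whole in 22 of the 27 libraries. It was higher in CAST/EiJ (0.80 ± 0.14 SE, edgeR adjusted p = 4.43e-05) and lower in A/J (-0.54) and C57BL/6J (-0.60). The catalytic subunit Atp5b had the same directions, with -0.47 in A/J, -0.42 in C57BL/6J and 0.56 in CAST/EiJ. Atp5e (ENSMUSG00000016252, chr2:174461072-174464105), the epsilon subunit of the rotor stalk, followed a different order. Its PWK/PhJ libraries were at 43.5, 71.1 and 67.0 CPM, its DBA/2J libraries at 36.8, 50.01 and 54.7 CPM, its A/J libraries at 30.4, 15.4 and 14.3 CPM and its WSB/EiJ libraries at 19.98, 21.01 and 28.3 CPM. PWK/PhJ and DBA/2J overlapped each other and lay above both low strains. The gene was higher in PWK/PhJ (0.98 ± 0.17, adjusted p = 8.39e-05) and DBA/2J (0.57, adjusted p = 0.0332), and lower in A/J (-0.82 ± 0.20, adjusted p = 0.00454) and WSB/EiJ (-0.59, adjusted p = 0.0337). No annotated copy of Atp5e was found and its counts were whole in every library.

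The proton-carrying c ring of ATP synthase is encoded by 3 genes that make the same mature protein from different precursors. Atp5g3 was the most abundant per kilobase of exon (87.1 CPM). Atp5g2 had 21.02 CPM and Atp5g1 15.3 CPM per kilobase, an order that rests on annotated exon lengths of 1675 and 4912 bases: before division by length Atp5g1 was at 75.3 CPM and Atp5g2 at 35.2 CPM. Counts of Atp5g1 were not whole in any library. Atp5g2 (ENSMUSG00000062683, chr15:102662864-102672352) was at 45.8, 60.5 and 58.0 CPM in PWK/PhJ and at 20.9, 23.4 and 20.3 CPM in A/J. It was higher in PWK/PhJ (0.77 ± 0.12 SE, edgeR adjusted p = 2.41e-05) and lower in A/J (-0.74, adjusted p = 0.000431). Atp5g3 was instead higher in CAST/EiJ, at 270, 285 and 263 CPM (0.62, adjusted p = 0.00145), and at 134, 216 and 217 CPM in PWK/PhJ (0.03, adjusted p = 0.936). Counts of Atp5g2 were not whole in 26 of the 27 libraries, so its level is uncertain.

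**Figure D3:**
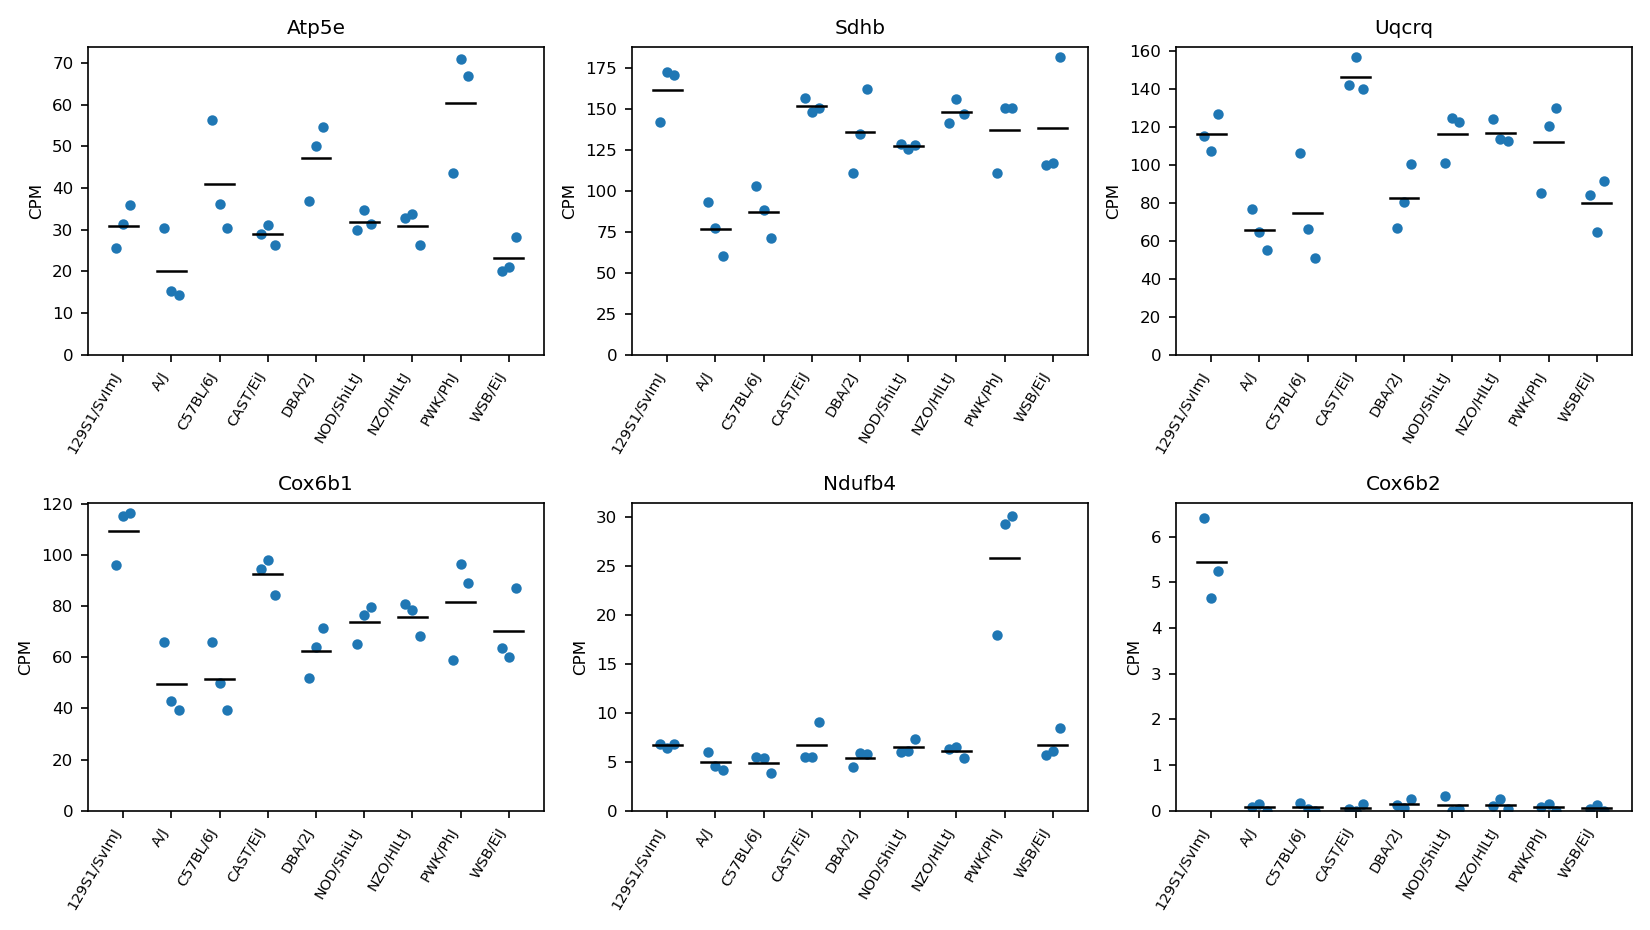
CPM of 6 members in each library by strain; points are libraries and lines strain means. Atp5e is high in PWK/PhJ, Sdhb low in A/J and C57BL/6J, and Cox6b2 at 4.66 CPM or more in the 129S1/SvImJ libraries and at most 0.325 CPM elsewhere; Ndufb4 has a copy of 100% identity.

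The mitochondrial-encoded genes had a different order of strains. NZO/HlLtJ was lowest: 11 of the 13 were lower there and none was higher, where 12.9% of all genes were lower and 14.8% higher. In C57BL/6J 7 were higher (11.6% of all genes), in A/J 6 (15.9%) and in WSB/EiJ 4 (15.5%), with none lower in these 3 strains. CAST/EiJ had 4 lower (17.8%) and 1 higher (20.1%), and PWK/PhJ 2 lower (14.8%) and 1 higher (19.4%). The other strains had higher calls only, 1 in 129S1/SvImJ (10.5%), 1 in DBA/2J (9.5%) and 2 in NOD/ShiLtJ (9.2%). The median log2 difference over the 13 genes was -0.91 in NZO/HlLtJ, -0.22 in CAST/EiJ, 0.49 in WSB/EiJ, 0.54 in A/J and 0.64 in C57BL/6J. The shift in NZO/HlLtJ covered every complex, with median deviations from the mean of the strains of -0.77 for the 7 complex I genes, -0.71 for mt-Cytb of complex III, -0.77 for the 3 complex IV genes and -1.07 for the 2 complex V genes. The 11 lower in NZO/HlLtJ became 6 without its replicate 1 or its replicate 2. The 7 in C57BL/6J became 12, 4 and 4 without its replicates 1, 2 and 4, the 6 in A/J became 3 without A/J replicate 3, and the 4 in WSB/EiJ became 8, 1 and 2 without its replicates 2, 3 and 4. The 1 higher in CAST/EiJ became 0 without its replicate 4 or 5, and the 1 higher in PWK/PhJ ranged from 0 to 2 over the libraries left out. The 1 in 129S1/SvImJ became 0 without its replicate 2 or 3, the 1 in DBA/2J became 2 without its replicate 4, and the 2 in NOD/ShiLtJ became 1 and 0 without its replicates 1 and 2. The 10 hepatocyte markers had median deviations of -0.32 in NZO/HlLtJ, where 9 of 10 lay below the mean of the strains, -0.26 in CAST/EiJ, 0.30 in A/J and 0.43 in WSB/EiJ, where 9 of 10 lay above it. In C57BL/6J, with the highest median of the mitochondrial-encoded genes, they had 0.13. Endothelial markers had -0.98 in NZO/HlLtJ, with 10 of 10 below, and 0.67 in C57BL/6J, with 10 of 10 above, but 1.19 in PWK/PhJ and 0.06 in A/J, where the mitochondrial-encoded genes had -0.06 and 0.51. Kupffer cell markers had -0.63 in NZO/HlLtJ, 0.88 in A/J and 1.24 in C57BL/6J, but 0.81 in PWK/PhJ and -0.23 in WSB/EiJ, where the mitochondrial-encoded genes had -0.06 and 0.42. Stellate cell markers had -0.75 in NZO/HlLtJ, -0.77 in CAST/EiJ, 0.62 in A/J and 0.32 in WSB/EiJ. They had -0.06 in C57BL/6J and 0.68 in PWK/PhJ, where the mitochondrial-encoded genes had 0.56 and -0.06. The part of cell makeup in these values was not tested.

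Only mt-Nd1 and mt-Atp8 had no annotated nuclear copy, and copies outside the annotation were not searched for. mt-Atp8 lies between mt-Co2 and mt-Atp6, which both have annotated copies on chromosome 1, so its freedom from copies is not shown. mt-Nd1 (ENSMUSG00000064341, chrM:2751-3707), a membrane core subunit of complex I, was at 1635, 1590 and 1887 CPM in NZO/HlLtJ, at 1511, 1572 and 2398 CPM in CAST/EiJ and at 5301, 5469 and 6127 CPM in A/J. The NZO/HlLtJ and CAST/EiJ libraries overlapped each other and lay far below those of A/J. mt-Nd1 was lower in NZO/HlLtJ (-1.195 ± 0.25 SE, edgeR adjusted p = 0.000967) and CAST/EiJ (-1.08, adjusted p = 0.00119) and higher in A/J (0.74 ± 0.21, adjusted p = 0.0104). mt-Atp8 (ENSMUSG00000064356, chrM:7766-7969), a small subunit of ATP synthase whose reading frame overlaps mt-Atp6, was at 435, 398 and 529 CPM in NZO/HlLtJ and at 1036, 1934 and 1679 CPM in C57BL/6J. It was lower in NZO/HlLtJ (-1.35 ± 0.25, adjusted p = 0.000352) and higher in C57BL/6J (0.64, adjusted p = 0.0372); its CAST/EiJ difference was 0.08 (adjusted p = 0.819). Both genes were thus lower in NZO/HlLtJ, while in CAST/EiJ their values differed, a difference that was not tested. Where mt-Atp8 overlaps mt-Atp6 their reads cannot be told apart.

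Among the other mitochondrial-encoded genes, mt-Nd2 (chrM:3914-4951) had the largest decrease in NZO/HlLtJ of any called member. Its libraries were at 955, 883 and 1117 CPM there, below all libraries of the other strains, and it was lower by a log2 difference of -1.48 ± 0.24 SE (edgeR adjusted p = 7.69e-05). mt-Cytb, the only mitochondrial-encoded subunit of complex III, was lower in NZO/HlLtJ (-0.83, adjusted p = 0.0091) and higher in C57BL/6J (0.65, adjusted p = 0.0249). mt-Nd4 (-0.95), mt-Nd5 (-0.91), mt-Nd6 (-0.89), mt-Co1 (-0.90), mt-Co3 (-0.96) and mt-Atp6 (-1.11) were lower in NZO/HlLtJ too. mt-Nd6 lies on the opposite strand to the others and the kit is not stated to mark strand, so its counts are uncertain. mt-Nd3 stood out in CAST/EiJ, at 33.0, 22.5 and 58.5 CPM against 105.7 CPM or more in the libraries of every other strain (-2.47 ± 0.25, adjusted p = 2.22e-08).

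**Figure D4:**
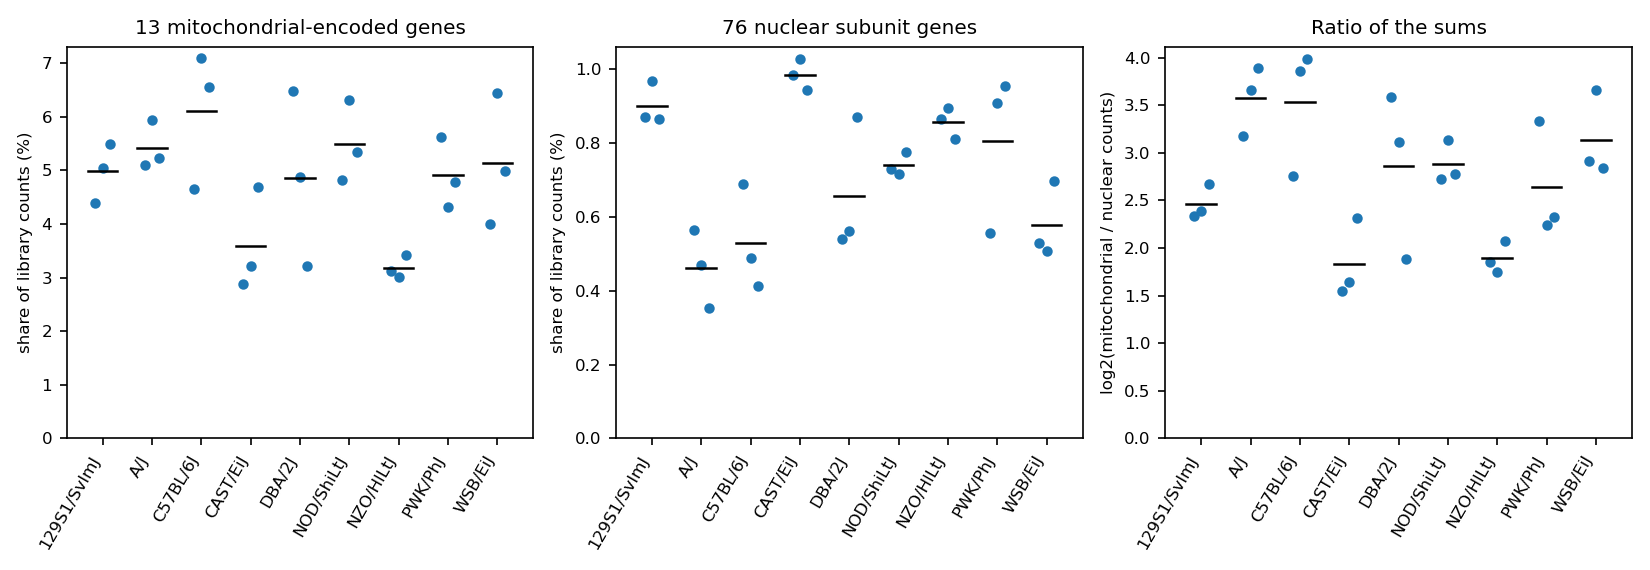
Share of counts held by mitochondrial-encoded genes, share held by nuclear subunits, and log2 of the ratio of these sums; points are libraries and lines strain means. A/J and C57BL/6J have low nuclear shares and the highest ratios, and CAST/EiJ and NZO/HlLtJ the lowest.

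As a share of all counts, the 13 mitochondrial-encoded genes took from 3.18% ± 0.214 (SD, n = 3) in NZO/HlLtJ to 6.10% ± 1.28 in C57BL/6J, and the 76 nuclear subunits from 0.463% ± 0.106 in A/J to 0.985% ± 0.0410 in CAST/EiJ. The strains reached their mitochondrial-to-nuclear ratios by different routes. A/J and C57BL/6J combined the lowest nuclear shares (0.463% and 0.530%) with mitochondrial shares of 5.42% and 6.10%, for mean ratios of 12.2 and 12.4. NOD/ShiLtJ had a similar mitochondrial share, 5.49%, with a nuclear share of 0.740%, for a ratio of 7.43. Shares also depend on other abundant genes: Alb took 17.6% to 19.3% of counts in the A/J libraries and at most 16.4% elsewhere. CAST/EiJ combined the highest nuclear share with a mitochondrial share of 3.60% ± 0.967, for a ratio of 3.68, and NZO/HlLtJ a nuclear share of 0.858% ± 0.0429 with the lowest mitochondrial share, for a ratio of 3.73. On the log2 scale the ratio was 3.57 ± 0.364 in A/J, 3.54 ± 0.678 in C57BL/6J, 1.89 ± 0.168 in NZO/HlLtJ and 1.84 ± 0.416 in CAST/EiJ. The strain means spanned 1.74, or 3.33-fold, against a pooled SD within strains of 0.497. Neighbouring strains in the order of means overlapped, except NZO/HlLtJ, with libraries up to 2.08, and 129S1/SvImJ, with libraries from 2.34. DBA/2J had the widest spread, with libraries from 1.89 to 3.58. With annotated copies added to each member the span was 1.65 and the order at the low end changed, with NZO/HlLtJ at 2.28 ± 0.171 below CAST/EiJ at 2.56 ± 0.404. The mitochondrial share with copies was 6.02% in CAST/EiJ, near the 6.25% of DBA/2J and the 6.45% of 129S1/SvImJ, for a ratio of 6.04, while NZO/HlLtJ was at 4.22%. The low mitochondrial share of CAST/EiJ was thus less marked with copies added. It lay above that of NZO/HlLtJ and below the means of the other strains, with libraries from 4.90% to 7.81%. This ratio over chosen genes is a description and was given no test.

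Sequence copies weighed heavily on single mitochondrial-encoded genes. Annotated pseudogenes with at least 90% identity were found for 11 of the 13 genes, 15 copies in all, of which 7 lie together on the minus strand of chromosome 1 between 24611535 and 24616197 and 3 on chromosome 2. They held 24.6% of the counts of the genes and copies combined. The estimated counts of 9 of the 13 genes were not whole numbers in any library, as happens when reads that match several places are divided between them, and those of mt-Nd1 and mt-Atp8 were whole in all. Stretches are printed in lower case, with differing bases in capitals, to show where such sequences differ and where they are identical. The 120 bases of mt-Co2 were picked as those with the most differences from Gm13341, whose identity over the gene was 95.9%. Bases 403 to 522 of mt-Co2 are identical in Gm28661 on chromosome 1, while Gm13341 on chromosome 2 differs at 20 of these positions, 12 of them missing from the copy. Bases 1 to 60 of mt-Nd3 hold the only difference from Gm28438 over 345 aligned bases, T3C, counted from the first base of the gene. The 60 bases of mt-Nd4l shown are identical in Gm10222.
mt-Co2: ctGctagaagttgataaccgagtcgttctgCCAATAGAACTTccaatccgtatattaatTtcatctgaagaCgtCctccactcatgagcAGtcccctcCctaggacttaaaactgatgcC
Gm13341: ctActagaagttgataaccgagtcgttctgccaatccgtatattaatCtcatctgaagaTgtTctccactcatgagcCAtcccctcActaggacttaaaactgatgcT
mt-Nd3: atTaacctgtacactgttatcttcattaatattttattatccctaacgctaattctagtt
Gm28438: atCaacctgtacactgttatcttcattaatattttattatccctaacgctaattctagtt
mt-Nd4l: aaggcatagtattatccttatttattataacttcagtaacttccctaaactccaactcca

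mt-Co2 (ENSMUSG00000064354, chrM:7013-7696), the copper-binding subunit of complex IV, changed most when copies were added. Its PWK/PhJ libraries were at 24.6, 14.1 and 22.2 CPM while every library of the other strains was at 830 CPM or more, a log2 difference of -6.11 ± 0.28 SE (edgeR adjusted p = 7.12e-15). The copy Gm28661 was at 4587 CPM in PWK/PhJ, more than in 5 of the other strains. With copies added PWK/PhJ was at 4611 ± 989 CPM (SD, n = 3), and the difference became -0.25 (adjusted p = 0.408). mt-Nd4l behaved in the same way, at 11.02, 5.81 and 9.72 CPM in PWK/PhJ alone (-5.11 ± 0.33, adjusted p = 8.25e-12) and at 725 ± 260 CPM with its copy (-0.21, adjusted p = 0.548). In CAST/EiJ, mt-Co1 was at 8461 ± 2340 CPM alone (-1.31, adjusted p = 0.000328) and 16826 ± 4285 CPM with copies (-0.39, adjusted p = 0.208). There the copy Gm13340 on chromosome 2 was at 7007 CPM, against 432 CPM in NZO/HlLtJ and at most 12.1 CPM in the other strains. Differences between the strains' mitochondrial or nuclear genomes were not examined, and the genome used for alignment is not stated beyond the build, so which copy the reads came from was not tested.

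Adding copies kept some differences and changed others. mt-Nd3 in CAST/EiJ was at 92.4 ± 15.8 CPM with its copy, still lower than in the other strains (-2.50, edgeR adjusted p = 3.64e-10). In NZO/HlLtJ, mt-Co2 moved from 0.11 alone to -0.92 (adjusted p = 0.00393) and mt-Nd4l from -0.14 to -1.10 (adjusted p = 0.00223), so that all 13 genes were lower there with copies added, where 12.8% of all genes were. With copies added, 5 genes were higher in A/J (15.9% of all genes), 7 in C57BL/6J (11.6%) and 2 in WSB/EiJ (15.4%), and 2 were lower in CAST/EiJ (17.7%). The higher calls in 129S1/SvImJ (10.5%), DBA/2J (9.49%), NOD/ShiLtJ (9.14%), CAST/EiJ (20.1%) and PWK/PhJ (19.4%) and the lower calls in PWK/PhJ (14.7%) all became 0. The mt-Co2 difference turned direction in 129S1/SvImJ (-0.24, adjusted p = 0.461) and NOD/ShiLtJ (-0.13, adjusted p = 0.738).

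**Figure D5:**
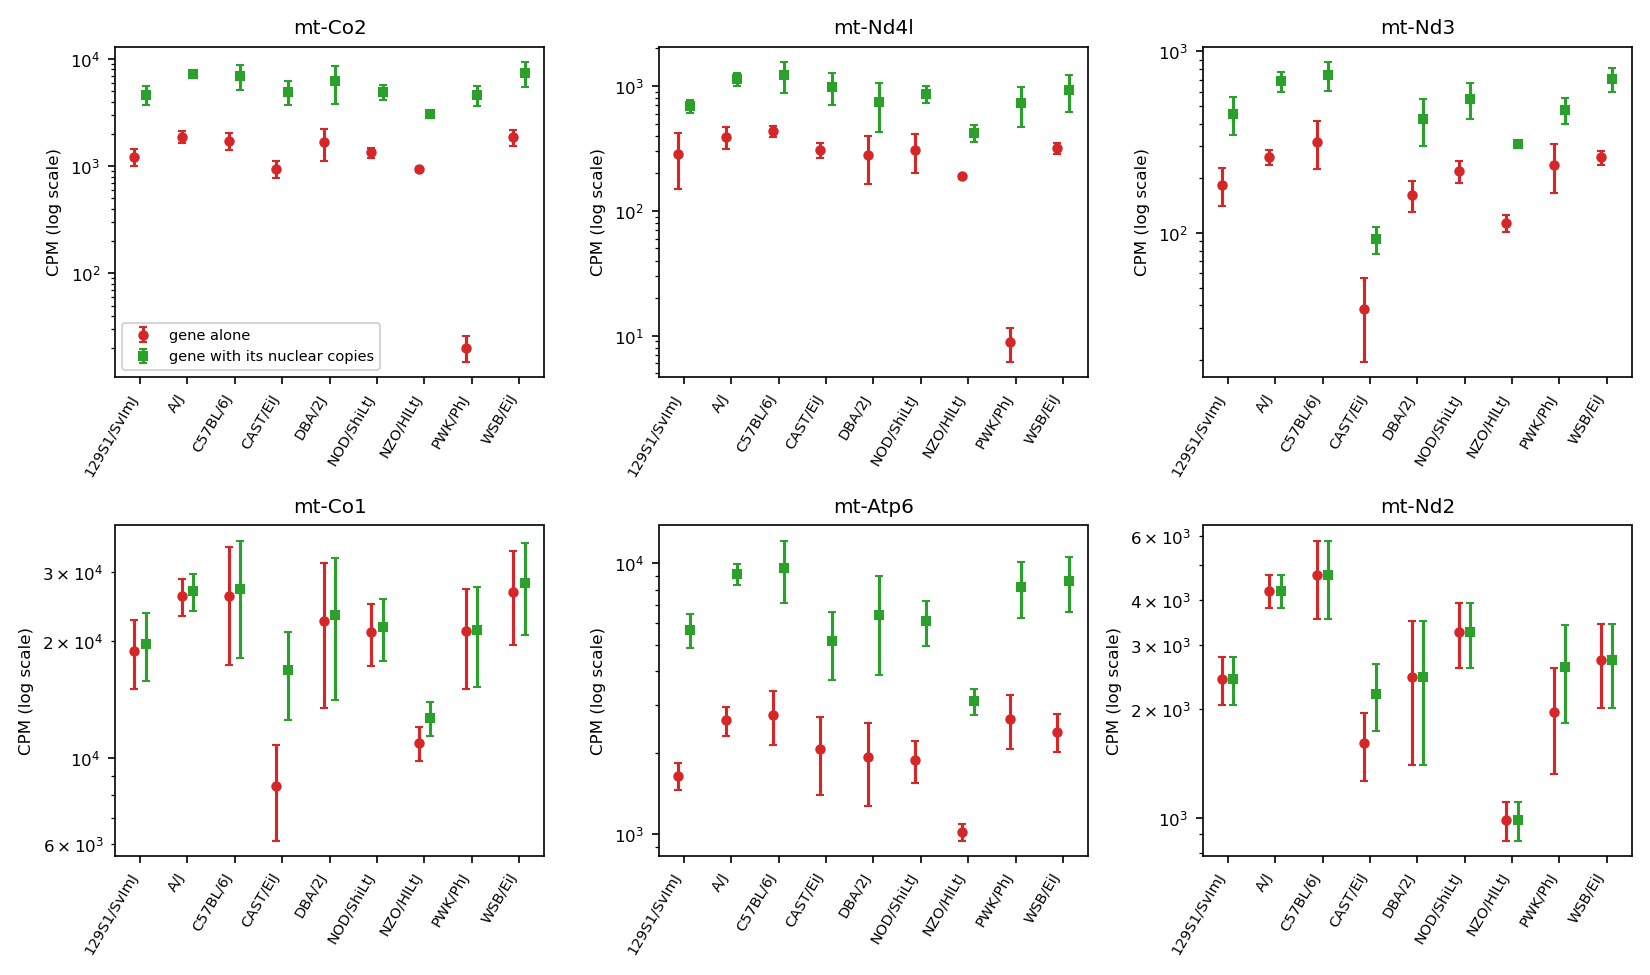
CPM of 6 mitochondrial-encoded genes by strain on a log axis, counted alone and with their annotated nuclear copies added; points are means and bars SD over 3 libraries. The low PWK/PhJ values of mt-Co2 (20.3 CPM) and mt-Nd4l (8.85 CPM) rise to 4611 and 725 CPM with copies, while mt-Nd3 stays low in CAST/EiJ.

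Copies changed the picture for several nuclear subunits with large strain differences as well. Ndufb4 (ENSMUSG00000022820, chr16:37647170-37654453), a membrane-arm subunit of complex I, had the largest F of all nuclear members. It was at 17.97, 29.3 and 30.1 CPM in PWK/PhJ and its means in the other strains lay between 4.89 and 6.75 CPM (log2 difference 2.12 ± 0.13 SE, edgeR adjusted p = 4.78e-12). Its processed copy Ndufb4c (chr15:73809507-73809896, 100% identity) was at 0.245 CPM in PWK/PhJ and 14.1 to 24.0 CPM in the other strains. With copies added PWK/PhJ was at 26.0 ± 6.66 CPM (0.02, adjusted p = 0.96). For Atp5l, at 40.5, 63.0 and 64.8 CPM in PWK/PhJ, the difference went from 1.34 ± 0.21 (adjusted p = 1.42e-05) to 0.12 (adjusted p = 0.597), and its copy Gm10221 was at 0.315 CPM there and at 23.6 CPM or more elsewhere.

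Ndufs5, a small subunit of complex I, has the copy BC002163 (chr16:42955631-42955949, 99.4% identity). The copy was at 13.7 CPM in 129S1/SvImJ, 11.9 CPM in CAST/EiJ and 12.0 CPM in NOD/ShiLtJ and at most 0.0411 CPM in the other 6 strains. Ndufs5 itself was lower in those 3 strains (129S1/SvImJ -0.62, edgeR adjusted p = 0.0112; CAST/EiJ -0.75, adjusted p = 0.00123; NOD/ShiLtJ -0.56, adjusted p = 0.0232). With the copy added the differences were 0.28, 0.10 and 0.20 and none passed the test (adjusted p = 0.204, 0.66 and 0.446). Atp5h instead gained a call with copies added. Its copy Gm10250 was at 42.7 CPM in CAST/EiJ and at most 0.175 CPM elsewhere, and its CAST/EiJ difference went from -0.06 alone to 0.65 with copies (adjusted p = 0.000247). In NOD/ShiLtJ, Atp5g1 went from -0.51 (adjusted p = 0.0345) to 0.00492 (adjusted p = 1.0) with copies. In all, 27 nuclear subunits had 51 copies, which held 1.14% of the summed counts, and 21 nuclear subunits had counts that were not whole in at least 14 libraries. With copies added, 37 nuclear subunits were lower in A/J (11.6% of all genes), 21 lower in C57BL/6J (6.49%), 35 higher in CAST/EiJ (20.1%) and 7 higher in PWK/PhJ (19.4%). Of the smaller counts, none was lower in 129S1/SvImJ (7.84%), 1 was lower in DBA/2J (3.75%), and in NOD/ShiLtJ 1 was higher (9.14%) and none lower (5.69%).

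The isoforms known from muscle, testis or other tissues were at trace levels, except for 1 in 1 strain. Cox7b2 and Cox8c were at 0 in every library, and Cox4i2, Cox6a2 and Cox8b averaged 0.0545, 0.0160 and 0.00434 CPM, far below their common forms Cox4i1, Cox6a1 and Cox8a. Markers of skeletal muscle and brown fat summed to means of 0.0757 to 0.442 CPM by strain, with Ucp1 at 0 in all libraries. Cox7a1, the heart and muscle form, averaged 0.397 CPM and did not pass the test for strain differences (edgeR adjusted p = 0.507), while Cox7a2 averaged 38.4 CPM. Ndufa4l2, a relative of Ndufa4 known as a hypoxia-induced gene, averaged 0.355 CPM and passed the test for any difference (adjusted p = 0.0247), with no single strain called against the others. The testis form Cox6b2 (ENSMUSG00000051811, chr7:4751792-4753094) was at 6.42, 4.66 and 5.25 CPM in 129S1/SvImJ and at most 0.325 CPM in each of the 24 other libraries. These values rest on 531 counts in the 3 libraries of 129S1/SvImJ and 63 counts in the 24 others together, 6 of which held none. The gene passed the filter on low counts only through 129S1/SvImJ, so its values are a description and no test or fold is given. The common form Cox6b1 was at 95.9 CPM or more in the same 3 libraries.

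The Ndufaf factors, which assemble complex I, had 4 of 8 lower in A/J (11.6% of all genes were), 2 lower in C57BL/6J (6.5%) and 4 higher in NOD/ShiLtJ (9.2%). Ndufaf5 (chr2:140170649-140203689) was at 5.43, 6.05 and 3.78 CPM in NZO/HlLtJ and at 2.15, 1.36 and 1.22 CPM in A/J. It was lower in A/J (-1.06 ± 0.20 SE, edgeR adjusted p = 0.000431) and in C57BL/6J (-0.73, adjusted p = 0.0101) and higher in NZO/HlLtJ (0.85, adjusted p = 0.000383). Ndufaf2 (chr13:108002715-108158623) was at 5.23, 5.72 and 5.75 CPM in NOD/ShiLtJ and at 1.89, 1.51 and 0.928 CPM in CAST/EiJ, without overlap (NOD/ShiLtJ 0.91 ± 0.16, adjusted p = 0.00029; CAST/EiJ -1.25, adjusted p = 3.3e-05). Ndufaf4 (chr4:24898083-24905001) was at 4.47, 5.88 and 7.83 CPM in PWK/PhJ, below all other libraries (-1.09 ± 0.14, adjusted p = 1.61e-06), and was higher in WSB/EiJ (0.65, adjusted p = 0.000274) and NOD/ShiLtJ (0.50, adjusted p = 0.00637). None of these 3 factors had counts that were not whole.

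Other genes of the pathway were counted from lists drawn up for this purpose. Shares of all genes called are given in parentheses beside each count. Of 47 assembly factors of all complexes tested, 42 differed among strains (74.2%). In A/J 13 were lower (11.6%) and 3 higher (15.9%), and in C57BL/6J 9 were lower (6.5%) and 1 higher (11.6%). In CAST/EiJ 12 were higher (20.1%) and 8 lower (17.8%), close to the shares of all genes. Of 17 genes of coenzyme Q synthesis and electron carriers, 12 differed (74.2%), with 5 lower in A/J (11.6%), 5 lower in C57BL/6J (6.5%) and none higher in either. Of 32 genes that copy, transcribe or process mitochondrial DNA, 23 differed (74.2%), with 12 higher (20.1%) and 3 lower (17.8%) in CAST/EiJ. In NZO/HlLtJ 2 of them were lower (12.9%) and none was higher (14.8%). Of 12 nuclear regulators of these genes 6 differed (74.2%), and the 2 lower in NZO/HlLtJ (12.9%) were near the share of all genes. Mitochondrial ribosomal proteins, which translate the 13 mitochondrial-encoded genes, differed for 68 of 77 genes (74.2%). In A/J 36 were lower (11.6%) and none higher, in C57BL/6J 14 were lower (6.5%) and 1 higher (11.6%), and in CAST/EiJ 27 were higher (20.1%) and 2 lower (17.8%). In NZO/HlLtJ 16 of them were higher (14.8%) and none was lower (12.9%), while 11 of the 13 mitochondrial-encoded genes were lower in the same libraries.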

How the data were processed

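Poly(A)-selected RNA was sequenced from hepatocytes of 9 strains, with 3 libraries each; samples were grouped by the strain in their labels. The authors deposited 1 table of estimated counts per gene. Of its values 11.1% are not whole numbers (tolerance 1e-06), as happens when reads matching several genes are divided. The build is GRCm38 (mm10) per the submitters' processing notes, which also name FastQC 0.11.5 and DESeq2. The aligner, the counting tool, the annotation release and any use of strain genomes are not given in the sources used here. Symbols came from GENCODE M21, in which 42462 of the 43346 IDs had one; the IDs without one held 0.0579% of the counts.

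Counts were rounded, which changed no library total by more than 0.00026%. edgeR 4.0.16 (R 4.3.3) with TMM scaling (factors 0.722 to 1.23) and its expression filter left 14482 genes. A quasi-likelihood F test asked for any difference among strains, and contrasts set each strain against the mean of the 8 others. P-values were adjusted by Benjamini-Hochberg over all genes tested and called under 0.05. CPM are counts per 1000000 of the scaled library; log2 deviations used a prior count of 2. Totals of 17015956 to 35078511 counts limit precision mainly for genes at a few CPM or less. The fit was also run on simulated counts, and its outcome there is not given here.

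Copies are annotated pseudogenes aligning at 90% identity or more over at least 100 bases and 80% of the shorter transcript. Genes named are the 13 mitochondrial-encoded genes, the nuclear members with the largest and smallest range in each complex, the 12 with the largest F, the largest increase and decrease in each strain, and the isoforms. Those named beside them, as examples within a complex and for their printed promoters, were chosen after their values were seen. Alternatives were DESeq2 1.42.0, median-of-ratios scaling, library sizes from nuclear genes, other filters on low counts, a replicate block and each library left out. Adding copies and removing trends on GC content or exon length were chosen after seeing the data. Members and lists were chosen with earlier results of these data known. Histone marks and DNA methylation were not analysed here.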

Additional observations from a re-analysis of the deposited data

How the results depend on the processing

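The number of all genes with a strain effect (10746) ran from 9350 with the replicate block to 11445 with DESeq2 over the alternatives, and from 10352 to 11245 without 1 library. For nuclear subunits (56) the values were 42 with the block to 68 with DESeq2, and 46 to 64 without 1 library; for assembly factors (42) 30 to 42, and 34 to 42. The 13 mitochondrial-encoded genes were called in each of these settings.

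Leaving out 1 library gave wide ranges for the counts by strain. Shares of all genes by strain were computed only for the main fit and with copies summed. For nuclear subunits the lower counts ran from 6 to 55 in A/J, 0 to 44 in C57BL/6J, 0 to 2 in 129S1/SvImJ, 0 to 1 in DBA/2J, 0 to 2 in NOD/ShiLtJ, 0 to 4 in NZO/HlLtJ, 0 to 3 in PWK/PhJ and 0 to 5 in WSB/EiJ. The higher counts ran from 1 to 10 in 129S1/SvImJ, 19 to 37 in CAST/EiJ, 0 to 1 in DBA/2J, 0 to 1 in NOD/ShiLtJ, 1 to 6 in NZO/HlLtJ, 6 to 15 in PWK/PhJ and 0 to 3 in WSB/EiJ. For mitochondrial-encoded genes the higher counts ran from 0 to 1 in 129S1/SvImJ, 3 to 8 in A/J, 4 to 12 in C57BL/6J, 0 to 1 in CAST/EiJ, 1 to 2 in DBA/2J, 0 to 2 in NOD/ShiLtJ, 0 to 2 in PWK/PhJ and 1 to 8 in WSB/EiJ, and the lower count from 6 to 11 in NZO/HlLtJ. Medians over complexes ran from 0.58 to 0.67 for mitochondrial-encoded complex I in A/J, 0.017 to 0.050 for nuclear complex II in NOD/ShiLtJ and 0.40 to 0.45 for nuclear complex III in CAST/EiJ. The causes of these changes were not tested.

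With DESeq2, 33 nuclear subunits were lower in C57BL/6J, 3 lower in 129S1/SvImJ, and 2 mitochondrial-encoded genes higher in PWK/PhJ. With median-of-ratios scaling, 1 mitochondrial-encoded gene was higher in NOD/ShiLtJ, and the medians were 0.021 for nuclear complex II in NOD/ShiLtJ and 0.43 for nuclear complex III in CAST/EiJ. With no filter on low counts, 0 nuclear subunits were higher in WSB/EiJ. With the GC trend removed, 2 nuclear subunits were lower in 129S1/SvImJ, 1 mitochondrial-encoded gene was higher in NOD/ShiLtJ and 2 in PWK/PhJ.

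With the length trend removed, nuclear subunits lower numbered 3 in 129S1/SvImJ, 5 in CAST/EiJ, 1 in NOD/ShiLtJ and 8 in NZO/HlLtJ, and those higher 0 in NOD/ShiLtJ, 1 in NZO/HlLtJ, 16 in PWK/PhJ and 8 in WSB/EiJ. Mitochondrial-encoded genes higher numbered 0 in 129S1/SvImJ, 11 in C57BL/6J, 0 in CAST/EiJ, 1 in NOD/ShiLtJ and 3 in PWK/PhJ.

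With copies summed, nuclear subunits lower numbered 0 in 129S1/SvImJ, 0 in CAST/EiJ and 0 in NOD/ShiLtJ, and 1 was higher in NZO/HlLtJ. Mitochondrial-encoded genes higher numbered 0 in 129S1/SvImJ, CAST/EiJ, DBA/2J, NOD/ShiLtJ and PWK/PhJ and 2 in WSB/EiJ, and those lower 2 in CAST/EiJ and 0 in PWK/PhJ. Differences that turned direction were mt-Co2 in 129S1/SvImJ (-0.24) and NOD/ShiLtJ (-0.13), Ndufs5 in 129S1/SvImJ (0.28), CAST/EiJ (0.10) and NOD/ShiLtJ (0.20), and Atp5g1 in NOD/ShiLtJ (0.00492). The mitochondrial-to-nuclear ratio spanned 2.31 on the log2 scale from medians over genes. Over all settings, 235 values of single named genes lost a call and 15 gained one with their direction kept, 169 and 7 of them without 1 library; the 6 that turned direction come in addition.

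Replicate numbers share no stated source between strains. Over 76 pairs of libraries with the same number, the correlation of deviations had a median of 0.0232 and ran from -0.293 to 0.275, and 7 of 27 libraries correlated best with their own number, so the samples share only a number. With the replicate block, 8 nuclear subunits were higher in CAST/EiJ, 1 in NZO/HlLtJ and 0 in DBA/2J, NOD/ShiLtJ and WSB/EiJ. In the same fit 0 were lower in DBA/2J and NOD/ShiLtJ and 1 in WSB/EiJ, while 1 mitochondrial-encoded gene was higher in NOD/ShiLtJ and 2 in PWK/PhJ. Depth limits mainly the isoforms and assembly factors at a few CPM or less.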

Other observations

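Cox7a2l, which joins complexes III and IV into supercomplexes, was higher in PWK/PhJ (log2 difference 0.42, edgeR adjusted p = 0.0179) and lower in WSB/EiJ (-0.49, adjusted p = 0.0171); its counts were not whole in 25 of 27 libraries. Atp5s, a coupling factor of ATP synthase by its name, was higher in PWK/PhJ (0.48, adjusted p = 0.0206). Of 10 genes that exchange ATP, phosphate or reducing power across the inner membrane, 7 differed among strains (74.2% of all genes did), with 3 lower and 1 higher in A/J (11.6% and 15.9%) and the same counts in C57BL/6J (6.5% and 11.6%). Of 16 matrix and import genes outside oxidative phosphorylation, 15 differed, with 7 lower and 1 higher in A/J and 9 higher and 2 lower in CAST/EiJ (20.1% and 17.8%).

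Markers of other liver cells differed among the same libraries. Of 10 endothelial markers, 10 were higher in PWK/PhJ (19.4% of all genes were) and 7 lower in NZO/HlLtJ (12.9%), with summed means of 386 and 75.3 CPM. Of 10 stellate cell markers, 5 were higher in PWK/PhJ (19.4%) and 6 lower in NZO/HlLtJ (12.9%), with summed means of 166 and 43.8 CPM. Of 10 Kupffer cell markers, 7 were higher in A/J (15.9%), 10 in C57BL/6J (11.6%) and 6 in PWK/PhJ (19.4%), and 5 were lower in CAST/EiJ (17.8%). Their part in the values of the subunits was not tested.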
